A study of Mus musculus with 13 samples.

Results

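The genes that flank Cbl on mouse chromosome 9 were followed through 13 Illumina bead arrays of sorted blood stem and progenitor cells. The set held 55 genes, Cbl itself and its neighbours on both sides, out of 29453 genes and unnamed probes that remained when the brightest probe of each gene was kept. They were taken by the gene symbol of the probe, from a list chosen with earlier results of these data known. Positions were counted in protein-coding genes along the RefSeq gene order (assembly GRCm38.p6), with Cbl at 0. On that scale the outermost members were Sorl1 at -17 and Cadm1 at 61. With up to 10 annotated genes beyond either end, the segment held 175 annotated genes, of which 82 were protein-coding.

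Cbl encodes an E3 ubiquitin ligase, an enzyme that attaches ubiquitin to activated receptor tyrosine kinases and so sends them to the lysosome, and in blood stem cells it is known as a brake on cytokine signalling. Genes that lie beside an altered locus are inherited together with it, and comparing them with the rest of the genome asks whether the neighbourhood itself differs between the genotypes. The neighbours of Cbl have unrelated tasks. Among them are the CD3 chains of the T cell receptor, enzymes and vesicle tethers of the secretory and endosomal pathway, and Kmt2a, the histone methyltransferase that maintains Hox gene expression in blood stem cells.

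All cells came from mice with a C57BL/6 background, sorted without lineage markers and positive for c-Kit. The genotypes at c-Cbl were +/+, A/-, in which an allele written A lies over one written -, and -/-. No source used here gives the meaning of the letter A, the age and sex of the animals, or whether animals were pooled, and no cell type-specific promoter or added treatment is named. Of the Sca1-positive cells, long-term stem cells (LTHSC) were CD34- and Flt3-negative, short-term stem cells (STHSC) CD34-positive and Flt3-negative, and multipotent progenitors (MPP) positive for both. These 3 populations are called LSK cells below. The Sca1-negative committed progenitors were common myeloid (CMP, CD34-positive and CD16/32-negative), granulocyte-macrophage (GMP, positive for both) and megakaryocyte-erythroid (MEP, negative for both). Each of the 6 populations gave 1 array of +/+ and 1 of A/- cells, and the -/- genotype was measured in LTHSC alone. Because no group was repeated, the 6 populations served as pairs in the genotype comparisons. Their p-values reflect how much the genotype difference varied from population to population. Those between LSK cells and committed progenitors reflect instead how much the signals varied between arrays or between population means.

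Signals below are normalized log2 intensities, and a probe counted as detected on an array at a detection p under 0.01. Between 30.4% and 38% of the 45281 probes were detected per array. The 3 LTHSC arrays stood apart, with a mean raw signal of 248.95 to 260.23 against 744.09 to 1149.6 on the other 10, so results are also given without the LTHSC pair. The LTHSC +/+ array differed in a Y-linked gene as well, chosen here after its values were seen. Eif2s3y was at 4.64 and not detected there, and at 9.04 to 10.71 on the other 12 arrays, while Xist, the RNA of the inactive X chromosome, was detected on all 13. Both genes also differed by genotype. Xist was higher in A/- than in +/+ in every pair, from 10.68 against 10.64 in GMP to 11.24 against 9.91 in MPP. Outside LTHSC, Eif2s3y was lower in A/- in every pair, as in MEP with 9.04 against 10.71. The part of these differences in the genotype comparisons was not tested. The number of arrays limits the precision. In bulk RNA of this kind fewer cells of a type and less RNA per cell cannot be told apart.

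Of the 55 genes 54 had a listed probe, 98 probes in all, and Mpzl3 had none listed. The probe kept was detected on all 13 arrays for 18 genes, on 0 arrays for 13 and on 1 array for Cadm1, Fxyd2 and Fxyd6. The 38 detected on at least 2 arrays were tested. The 16 not tested were Cadm1, Cbl, Dscaml1, Fxyd2, Fxyd6, Ift46, Mcam, Mpzl2, Pafah1b2, Pdzd3, Pou2f3, Tagln, Tmprss13, Treh, Trim29 and Ttc36. Their signals lay between 4.38 and 6.06, near the background, and the highest was that of the adhesion molecule gene Cadm1 on the STHSC A/- array. The kept probes of Mcam (the endothelial adhesion molecule CD146) and Tagln (a smooth muscle actin-binding protein) were detected on 0 arrays, and a dimmer Mcam probe on 1. Both genes belong to a list of 14 stroma and endothelium markers, of which 5 were tested with 0 called. Those were Pecam1 and Tek, each detected on 12 arrays, Pdgfrb on 11, Cxcl12 on 5 and Acta2 on 3.

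Cbl, the targeted gene, could not be read on these arrays. Its single probe was detected on 0 of 13, with signals between 4.49 and 5.33 and detection p-values between 0.0641 and 0.936. The 6 differences, A/- minus +/+, were -0.12 (LTHSC), -0.38 (STHSC), -0.20 (MPP), -0.32 (CMP), 0.14 (GMP) and 0.71 (MEP), all between signals that were not well above background. The probe therefore checks no genotype label.

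Between A/- and +/+ cells, 1 of the 38 tested neighbours changed over the 6 pairs. Bace1, a membrane-anchored aspartyl protease of the endosomal system, was lower in A/- by limma (-0.87, SE 0.12, n = 6 pairs, adjusted p = 0.0320). That is 2.63% of the tested members, beside 76 of 12807 features (0.593%) across the array, of which 21 (0.164%) were higher and 55 (0.429%) lower in A/-. The median difference over the tested members was -0.043, with 18 higher and 20 lower, and 0.014 over all features. Without regard to sign the median was 0.208 for members and 0.145 for all features. An unadjusted p under 0.05 was reached by 11 members, or 28.9%, of which 9 were lower in A/-, and by 15.6% of all features. The 9 include Tmem25, which passed the filter through +/+ arrays alone, so its direction is in part set by that filter.

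For 9 members, 23.7% of those tested, the difference had the same sign in 6 of 6 pairs, against 8.61% of all features. Bace1, Nlrx1, Tmem25, Cep164, Cd3d, Dpagt1 and Trappc4 were lower in every A/- array than in its +/+ partner, and Kmt2a and Vps11 were higher, Kmt2a in LTHSC by 0.00 after rounding. Tmem25 was detected on 2 +/+ arrays and 0 A/- arrays, so most of its signs are between signals near the background. Cd3d was detected on 0 committed arrays, so its signs in CMP, GMP and MEP are between signals near the background too. With detection required on at least 6 arrays, Tmem25 dropped out and Cd3d stayed. Then 8 of 27 members (29.6%) had 1 sign in all pairs, against 8.91% of all features. The 6 A/- and 6 +/+ arrays did not overlap for 1 member, Dpagt1, or 2.63% of those tested, as for 0.344% of all features. Without the LTHSC pair limma called 5 members, or 13.2%, where 3.69% of all features were called. Those were Bace1 (adjusted p = 0.00404), Nlrx1 (0.0156), Dpagt1 (0.0194), Kmt2a (0.0208) and Cep164 (0.0379). Without the LTHSC and MEP pairs 6 were called, beside 3.89% of all features, and without the STHSC, MPP, CMP or GMP pair the count was 0, beside 0.0156% to 0.0547% of all features.

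**Figure D1:**
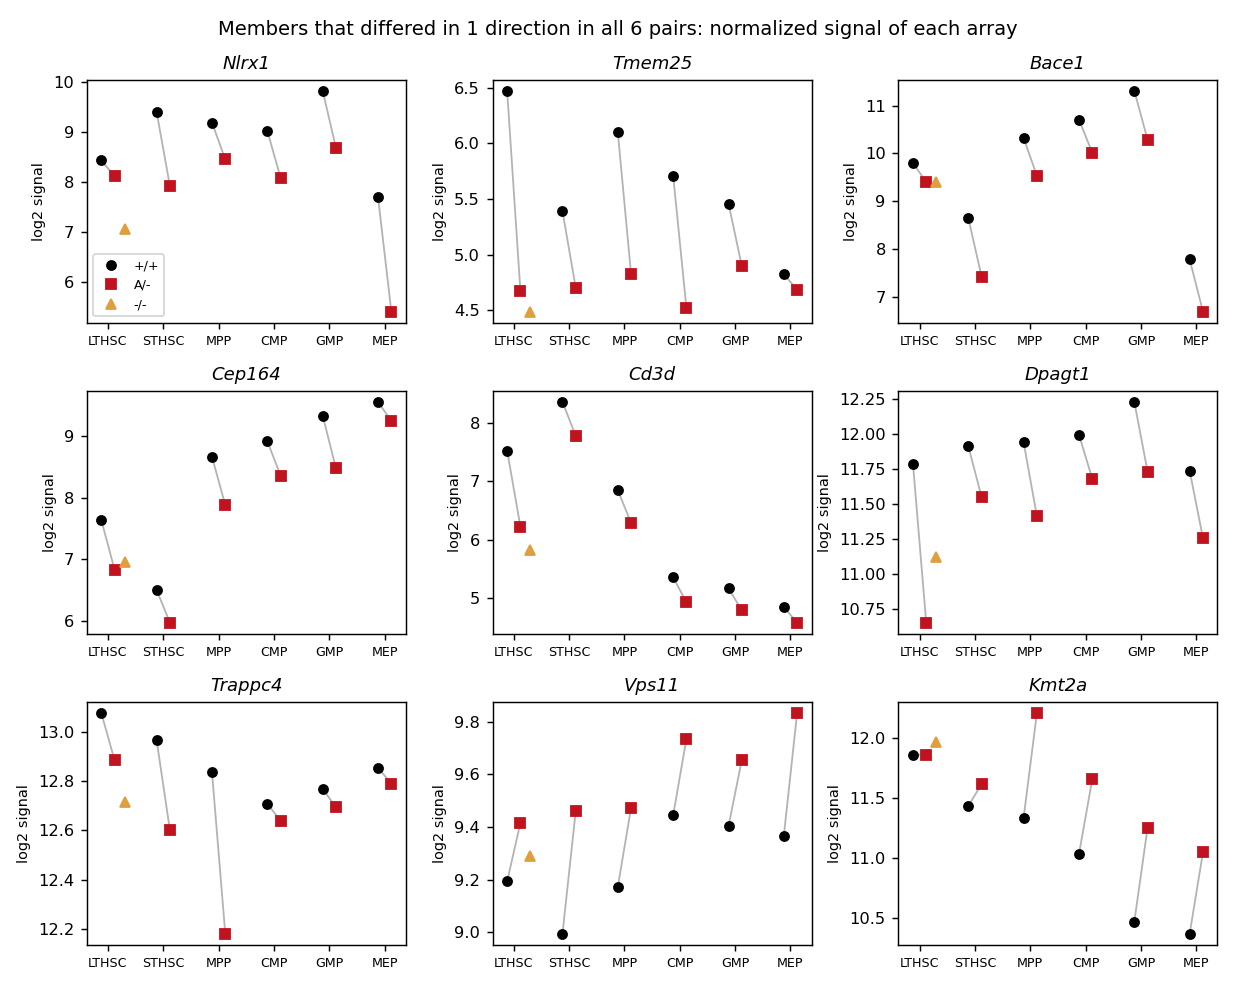
Normalized log2 signal (vertical axis, its own range in each panel) of the 9 members whose difference had 1 sign in all 6 pairs, by sorted population, with circles for +/+, squares for A/- and triangles for the -/- LTHSC array, and a line joining each pair. The Bace1 square lies below its circle by 0.39 in LTHSC and by 1.23 in STHSC, and the Kmt2a squares lie above their circles by 0.00 in LTHSC and by 0.87 in MPP.

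The differences were then laid out by distance from Cbl. Within 10 coding genes of Cbl 11 genes were tested, including H2ax, which is no member, and their median difference was -0.11 with 0 called by limma and 3 at an unadjusted p under 0.05. At 11 to 30 coding genes the median was 0.04 over 20 genes (0 called, 5 unadjusted), and beyond 30 it was -0.18 over 16 genes (1 called, Bace1 at position 46, 4 unadjusted). The 9 tested genes of the segment that are not members (Tlcd5, H2ax, Rps25, Ccdc84, Atp5l, Jaml, Zpr1, Nxpe4 and Nxpe2) lay between -0.51 and 0.21, with 0 called and 1 at an unadjusted p under 0.05. On the rest of chromosome 9 limma called 3 of 525 genes (0.571%), and on the other chromosomes 55 of 9448 (0.582%). Members on either side of 0 stood side by side. Bcl9l at position 18 was at -0.45 and its neighbour Cxcr5 at 0.33, and Bace1 lay between Cep164 (-0.64) and Rnf214 (0.05). Of these genes Bace1 alone was called. Cxcr5 was detected on 3 arrays, and dimmer Rnf214 probes were at -0.035 and -0.634, so opposite directions of neighbours are not shown.

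**Figure D2:**
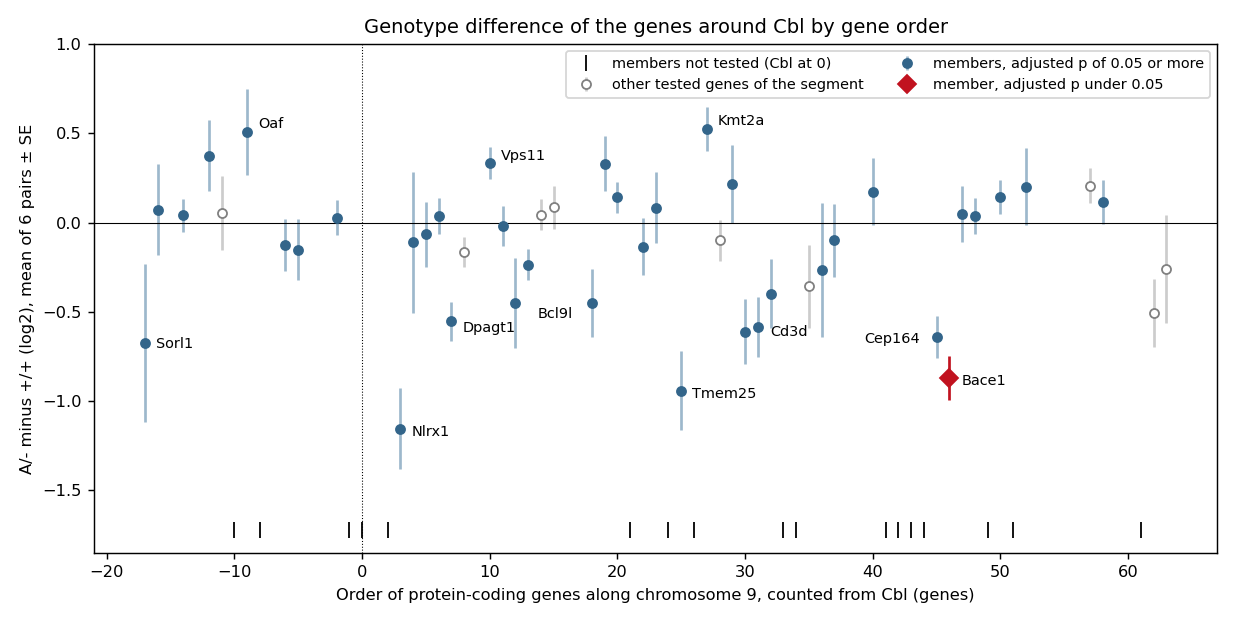
Difference A/- minus +/+ (log2, mean of 6 pairs, bars 1 SE) of the tested genes of the segment against their order in protein-coding genes from Cbl at 0, with filled points for members, open points for other genes and ticks for members not tested. Values run from -1.15 for Nlrx1 at position 3 to 0.52 for Kmt2a at position 27, and the diamond at position 46 is Bace1.

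Promoters were taken from RefSeq (GRCm38.p6), which had an entry for 31 members with 41 promoters of 250 bases before and 50 after the start. Those of 4 members that went 1 way in every pair are shown, to set the lower Cep164, Nlrx1 and Cd3d beside the higher Kmt2a. Bace1, Dpagt1, Vps11 and Trappc4 had no entry. Each is printed 5′ to 3′ on the gene's own strand. Capitals mark matches, on either strand, to 4 motifs that were picked with these sequences in view, the NF-Y box CCAAT, the ETS factor motif CCGGAAG, the E-box CACGTG and the GATA factor motif AGATAA, none of which overlaps another. Cep164 lies at chr9:45828614-45828913 on the minus strand, Nlrx1 at chr9:44268550-44268849 (minus, the more upstream of 2 starts), Cd3d at chr9:44981536-44981835 (plus) and Kmt2a at chr9:44881240-44881539 (minus).
Cep164: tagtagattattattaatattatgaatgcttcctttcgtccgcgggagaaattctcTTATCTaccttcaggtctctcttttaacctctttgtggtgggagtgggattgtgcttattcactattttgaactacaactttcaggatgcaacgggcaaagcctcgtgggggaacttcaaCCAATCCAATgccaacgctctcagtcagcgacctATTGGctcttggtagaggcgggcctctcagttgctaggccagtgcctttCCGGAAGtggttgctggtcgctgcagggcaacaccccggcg
Nlrx1: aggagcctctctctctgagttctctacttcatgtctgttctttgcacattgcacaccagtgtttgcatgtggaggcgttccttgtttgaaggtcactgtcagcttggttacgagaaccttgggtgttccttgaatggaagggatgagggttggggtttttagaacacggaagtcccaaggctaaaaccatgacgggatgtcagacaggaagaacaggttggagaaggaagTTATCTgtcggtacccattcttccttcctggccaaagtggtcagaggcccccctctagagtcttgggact
Cd3d: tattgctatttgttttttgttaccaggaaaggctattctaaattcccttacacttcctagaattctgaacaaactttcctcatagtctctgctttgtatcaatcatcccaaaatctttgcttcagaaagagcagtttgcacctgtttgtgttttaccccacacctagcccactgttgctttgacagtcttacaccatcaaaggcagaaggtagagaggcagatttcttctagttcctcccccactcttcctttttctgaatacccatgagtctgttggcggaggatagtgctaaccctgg
Kmt2a: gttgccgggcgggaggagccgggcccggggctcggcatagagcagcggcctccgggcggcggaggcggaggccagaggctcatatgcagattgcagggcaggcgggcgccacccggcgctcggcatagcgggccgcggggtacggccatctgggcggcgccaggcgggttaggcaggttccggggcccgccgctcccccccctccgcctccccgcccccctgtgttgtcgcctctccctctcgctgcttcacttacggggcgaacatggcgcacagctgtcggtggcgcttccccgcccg
The Kmt2a window was 75.7% G or C with 36 CpG dinucleotides, and that of Cd3d 42.3% with 1. Cep164 (49.3%, 12 CpG) held 3 NF-Y boxes, 1 ETS motif and 1 GATA motif, and Nlrx1, with 5 CpG, held 1 GATA motif. The windows of Cd3d and Kmt2a held 0 of the 4 motifs. The NF-Y box occurs in 37.4%, the ETS motif in 8.9%, the E-box in 7.2% and the GATA motif in 11.2% of all 32851 promoters, and in 11, 8, 5 and 6 of the 41 member promoters. The members' median G or C content was 59.0% with 19 CpG, against 52.7% and 7 for all promoters. The members are all protein-coding, and no such limit was set for the 27025 genes behind all promoters. The sets may therefore differ in kind, and these shares and medians are a description only. A match is only a run of letters and says nothing of a bound factor.

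Among the 11 secretory and endosomal genes, all of them tested, 5 were on the higher and 6 on the lower side in A/-, with a median of -0.02, and Bace1 was the member that fell. Its signals in +/+ and A/- were 9.80 and 9.40 (LTHSC), 8.65 and 7.42 (STHSC), 10.32 and 9.53 (MPP), 10.71 and 10.01 (CMP), 11.31 and 10.28 (GMP), and 7.78 and 6.69 (MEP). The gene was brightest in GMP and dimmest in MEP in both genotypes, and the A/- value was the lower of each pair although the ranges of the groups overlap. The difference was smallest in LTHSC, and without that pair it was -0.97 (SE 0.11, limma adjusted p = 0.00404). The call was lost without the STHSC (adjusted p = 0.117), MPP (0.114), CMP (0.140) or GMP pair (0.123) and without the mean-variance trend of limma (0.0522), and it held without the MEP pair.

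The genes whose signals ran most like Bace1 over the 12 +/+ and A/- arrays were Surf4 (Pearson r = 0.974), Alas1 (0.971) and Gpr160 (0.968), given as a description without a test. Values of a list of 14 neutrophil granule markers are set beside it. All 14 were tested and on the lower side in A/-, with a median of -1.97 and 0 called by limma. The list's medians in LTHSC, STHSC, MPP, CMP, GMP and MEP were 0.12, -1.15, -0.97, -1.50, -2.55 and -5.26, where Bace1 differed by -0.39, -1.23, -0.79, -0.69, -1.03 and -1.09. Its summed log2 level spanned 17.21 to 18.36 over the +/+ arrays and 12.26 to 17.78 over the A/- arrays. Their part in the Bace1 result was not tested.

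Dpagt1, the enzyme that starts the lipid-linked sugar chain for N-glycosylation, was at 11.79 and 10.65 (LTHSC), 11.91 and 11.55 (STHSC), 11.94 and 11.41 (MPP), 11.997 and 11.68 (CMP), 12.23 and 11.73 (GMP) and 11.74 and 11.26 (MEP). The highest A/- array, GMP, lay just under the lowest +/+ array, MEP, so the groups did not overlap. Over 6 pairs the difference was -0.55 (SE 0.11) and missed the threshold (limma adjusted p = 0.0683). Trappc4, a subunit of the TRAPP vesicle tether, differed by -0.24 (SE 0.09, adjusted p = 0.250), with a range from -0.65 in MPP to -0.06 in MEP. Vps11, a core subunit of the HOPS and CORVET tethers that fuse endosomes and lysosomes, was at 9.19 and 9.42 (LTHSC), 8.99 and 9.46 (STHSC), 9.17 and 9.47 (MPP), 9.45 and 9.74 (CMP), 9.40 and 9.65 (GMP) and 9.37 and 9.83 (MEP). The A/- array was the higher in every pair while the groups overlapped, and limma gave 0.33 (SE 0.09, adjusted p = 0.144). A dimmer Vps11 probe pointed the other way, at -0.42 (SE 0.17), but it was detected on 2 arrays only.

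The other secretory members were not called. Sorl1, a sorting receptor that moves cargo from endosomes back to the Golgi, differed by -0.68 (SE 0.44, limma adjusted p = 0.471), and its 6 differences ran from 0.50 in LTHSC to -3.33 in MEP. In MEP it was at 7.90 in +/+ and not detected at 4.57 in A/-, at least 2.90-fold lower. Such a bound compares the brighter array with the dimmest probe that was detected on the dimmer array. In that MEP pair the 14 neutrophil granule markers had a median of -5.26, and their part in the Sorl1 difference was not tested. Slc37a4, the glucose-6-phosphate transporter of the endoplasmic reticulum, was higher in the LTHSC A/- array by 0.95 and lower in the 5 other A/- arrays, by -0.37 to -1.05. Its mean was -0.45 (SE 0.25, adjusted p = 0.407), and -0.73 without LTHSC (adjusted p = 0.0505). Hyou1, a chaperone of the endoplasmic reticulum, Arcn1, the delta subunit of the COPI coat, Pcsk7, a proprotein convertase, C2cd2l, a lipid transfer protein, and Sidt2, a lysosomal membrane protein, lay between -0.02 and 0.14.

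The partners of these proteins that lie elsewhere in the genome were read from lists. Of 21 genes of the COPI, TRAPP, and HOPS and CORVET complexes 20 were tested, 10 higher and 10 lower, with a median of 0.00. Trappc5, another TRAPP subunit, fell by 1.02 (SE 0.16, limma adjusted p = 0.0320) and was the gene called. Vps39, a HOPS subunit like Vps11, was at 1.13 (SE 0.24, adjusted p = 0.0824). Of 20 unfolded protein response genes, the group to which Hyou1 belongs, 17 were tested with 0 called, 1 higher and 16 lower, and a median of -0.10.

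The 7 immune receptor members were all tested, and 0 passed. Of these 5 were on the lower and 2 on the higher side, with a median of -0.40. Nlrx1, a mitochondrial NOD-like receptor that lies 3 coding genes from Cbl, had the largest difference of all tested members. Its +/+ and A/- signals were 8.43 and 8.12 (LTHSC), 9.40 and 7.91 (STHSC), 9.19 and 8.45 (MPP), 9.02 and 8.08 (CMP), 9.83 and 8.68 (GMP), and 7.70 and 5.40 (MEP). Each A/- array was lower than its partner, the groups overlapped, and the probe was not detected in the A/- MEP. The mean was -1.15 (SE 0.23, limma adjusted p = 0.0683) over 6 pairs and -1.32 (adjusted p = 0.0156) without LTHSC. A dimmer Nlrx1 probe was lower too, at -0.71 (SE 0.19). In the MEP pair, where Nlrx1 differed by -2.30, the 14 neutrophil granule markers had a median of -5.26. Their part in the Nlrx1 difference was not tested.

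The CD3 chains, which carry the signal of the T cell receptor, lie together at positions 30 to 32, and 0 committed arrays detected any of them, so their differences can be read in LSK cells alone. Cd3d was at 7.52 and 6.22 (LTHSC), 8.35 and 7.77 (STHSC), 6.84 and 6.28 (MPP), 5.35 and 4.93 (CMP), 5.17 and 4.79 (GMP), and 4.84 and 4.58 (MEP). It was detected on all LSK arrays and on 0 committed arrays, and its A/- value was the lower in every pair. Limma gave -0.59 for Cd3d (SE 0.17, adjusted p = 0.164), -0.61 for Cd3g (SE 0.18, adjusted p = 0.179) and -0.40 for Cd3e (SE 0.19, adjusted p = 0.354). Cd3g and Cd3e were detected on 3 arrays each, and both were brightest in STHSC +/+, at 7.98 and 7.33. These cells were sorted without lineage markers. Of a list of 19 T cell markers, to which the CD3 chains and Thy1 belong, 11 were tested with 0 called, 5 higher and 6 lower, and a median of -0.06. The summed log2 level of the list spanned 11.88 to 13.61 in +/+ and 11.92 to 13.89 in A/-, close to the level of Cd8b1 alone, which was at 11.59 to 13.73, so the sum says little of the other markers. Cd4, Cd5, Cd7, Cd8a, Cd28, Lck and Skap1 were among those not detected on enough arrays to be tested. The part of T cells in the CD3 signals was not tested.

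The remaining receptors were not called. Thy1, a surface glycoprotein of T cells and early progenitors, differed by -0.13 (SE 0.15, limma adjusted p = 0.692). Il10ra, the ligand-binding chain of the interleukin-10 receptor, differed by 0.17 (SE 0.19), and its pairs ran from -0.45 in MEP to 0.74 in LTHSC. Cxcr5, the chemokine receptor that guides cells into B cell follicles, was detected on 3 arrays and differed by 0.33 (SE 0.15, adjusted p = 0.338).

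Of the 6 nuclear and RNA genes 5 were tested, 3 higher and 2 lower, and 0 passed. Kmt2a was at 11.86 and 11.86 (LTHSC), 11.44 and 11.62 (STHSC), 11.34 and 12.21 (MPP), 11.04 and 11.66 (CMP), 10.47 and 11.26 (GMP), and 10.37 and 11.05 (MEP), +/+ first. The LTHSC pair differed by 0.00, the other 5 A/- arrays were higher, and the groups overlapped. The mean was 0.52 (SE 0.12, limma adjusted p = 0.110), and 0.63 (adjusted p = 0.0208) without LTHSC. A second Kmt2a probe was at 0.62 (SE 0.12). Among 15 genes that Kmt2a regulates or binds, such as Hoxa9, Meis1 and Men1, 13 were tested with 0 called, 10 higher and 3 lower, and a median of 0.04. Hoxa9 was at 0.01, Meis1 at -0.03 and Men1, the menin gene, at 0.20.

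Bcl9l, a coactivator of beta-catenin, differed by -0.45 (SE 0.19, limma adjusted p = 0.297), with -1.40 in MEP and 0.21 in MPP at the ends of its range. Hinfp, a transcription factor of histone H4 genes, differed by -0.07 and Bud13, a splicing factor subunit, by 0.11. Ddx6, an RNA helicase of processing bodies, differed by 0.14 (SE 0.09) on its brightest probe. Its 4 dimmer probes were all lower, at -0.47, -0.78, -0.56 and -0.39, with a smallest limma adjusted p of 0.0708, so the arrays give no single direction for Ddx6.

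Of the 7 cytoskeleton and cilium genes 4 were tested, 2 higher and 2 lower, with a median of -0.05 and 0 called. Cep164, which anchors the mother centriole to the membrane when a cilium forms, was at 7.64 and 6.83 (LTHSC), 6.50 and 5.97 (STHSC), 8.67 and 7.88 (MPP), 8.92 and 8.36 (CMP), 9.34 and 8.48 (GMP), and 9.56 and 9.25 (MEP). The 6 differences ran from -0.86 in GMP to -0.31 in MEP, with overlapping groups because the populations themselves were further apart. Limma gave -0.64 (SE 0.12) with an adjusted p of 0.0552, and -0.61 (adjusted p = 0.0379) without LTHSC. Cep164 and Bace1 are neighbours, at positions 45 and 46. Tbcel, a tubulin chaperone-like protein, differed by 0.04, and Phldb1, a cortical microtubule anchor, by -0.13. Arhgef12, a guanine nucleotide exchange factor, was detected on 2 arrays, the LTHSC -/- and the MEP A/-. In MEP it was at 5.75 and 7.07, at least 1.62-fold higher in A/-.

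The remaining groups held no called member. Of 5 ubiquitin pathway genes besides Cbl 4 were tested, 3 higher and 1 lower. The ubiquitin ligase Rnf26 was at 0.03, Rnf214 at 0.05, the deubiquitinase Usp2 at -0.15, and the ubiquitin chain elongation factor Ube4a at 0.22 with detection on 2 arrays. Of a separate list of 12 Cbl relatives and partners 8 were tested, 7 higher and 1 lower, with a median of 0.11 and 0 called, and the paralogue Cblb was at 0.28 (SE 0.14, limma adjusted p = 0.357).

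Of 6 signalling and metabolism genes 3 were tested, the sterol desaturase Sc5d at 0.07, the kinase Sik3 at 0.20 and Abcg4, a cholesterol exporter of megakaryocyte progenitors, at -0.11 (SE 0.39). Of the ion channel and pump subunits the sodium channel beta subunits Scn2b (-0.27) and Scn4b (-0.10) were tested, and their signals were close to background. Among the adhesion and surface genes Tmem25 and Oaf were tested. Oaf, a secreted protein, was detected in the A/- CMP and MEP arrays alone and was at 0.51 (SE 0.24, adjusted p = 0.342). Tmem25 was detected in the +/+ LTHSC and MPP arrays alone, at 6.47 and 6.10, with A/- partners at 4.67 and 4.82. It was lower in 6 of 6 A/- arrays by a mean of -0.94 (SE 0.22, limma adjusted p = 0.112), but most of its signals are only upper limits, and a bound over the groups gives no fold. Ube4a, Oaf, Sc5d, Arhgef12 and Tmem25 passed the filter through mutant or through +/+ arrays alone, so their direction is in part set by that filter.

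The genotype difference was next compared between LSK cells and committed progenitors. By limma 0 of 38 members differed, 4 had an unadjusted p under 0.05 (Abcg4, Oaf, Cd3g and Trappc4), and 1 of 12807 features (0.00781%) passed, with 8.36% at an unadjusted p under 0.05. Abcg4 was lower in A/- in all 3 LSK pairs, by -1.55, -1.11 and -0.51, and higher in all 3 committed pairs, by 0.07, 2.01 and 0.42, which gives a contrast of -1.89 (SE 0.51, n = 3 and 3 pairs, limma adjusted p = 0.573). It was by far the brightest in MEP, at 11.27 in +/+ and 11.69 in A/-. In GMP it was at 5.49 in +/+, not detected, and at 7.496 in A/-, at least 2.93-fold higher. In that GMP pair the 16 tested megakaryocyte and erythroid markers had a median of 1.89, and their part in the Abcg4 difference was not tested.

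Pair by pair, without a test, 24 member differences measured past 2-fold. In 9 of them both arrays detected the gene, and all 9 were lower in A/-. Bace1 and Nlrx1 recur among these 9. The share of all features past 2-fold with both arrays detected was not counted, so their direction is no result about the members alone. In the other 15 the dimmer array did not detect it, and the bound described above was at least 2-fold in 4 (Abcg4 in LTHSC and GMP, Nlrx1 and Sorl1 in MEP) and below that in 11, which are therefore not shown to be 2-fold apart. In LTHSC there were 5, all lower (Tmem25, Abcg4, Cd3d, Cd3e and Dpagt1), against a background of 3.72% of all features measured past 2-fold. In STHSC there were 4, all lower (Nlrx1, Bace1, Abcg4 and Sorl1, background 4.06%), and in MPP 2, both lower (Tmem25 and Cd3g, background 6.29%). In CMP 2 measured higher (Ube4a and Sc5d, background 2.98%), both undetected in +/+, with a bound of 1.11-fold for Sc5d and no fold for Ube4a. In GMP 3 were lower (Nlrx1, Slc37a4 and Bace1) and 2 higher (Abcg4 and Scn2b, background 8.15%), and in MEP 4 were lower (Sorl1, Nlrx1, Scn2b and Bace1) and 2 higher (Oaf and Arhgef12, background 6.1%). Across all features the lower share was the larger in STHSC (3.05% lower, 1.01% higher), MPP (4.92% and 1.37%) and MEP (4.35% and 1.75%), and the smaller in LTHSC (1.53% and 2.19%). Where both arrays of a pair detected the gene the folds lay between 2.04 for Bace1 in GMP and 2.80 for Nlrx1 in STHSC. Each of these counts is of at most 6 members. On the authors' processed values fewer members measured past 2-fold in every one of these pairs, as given below.

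**Figure D3:**
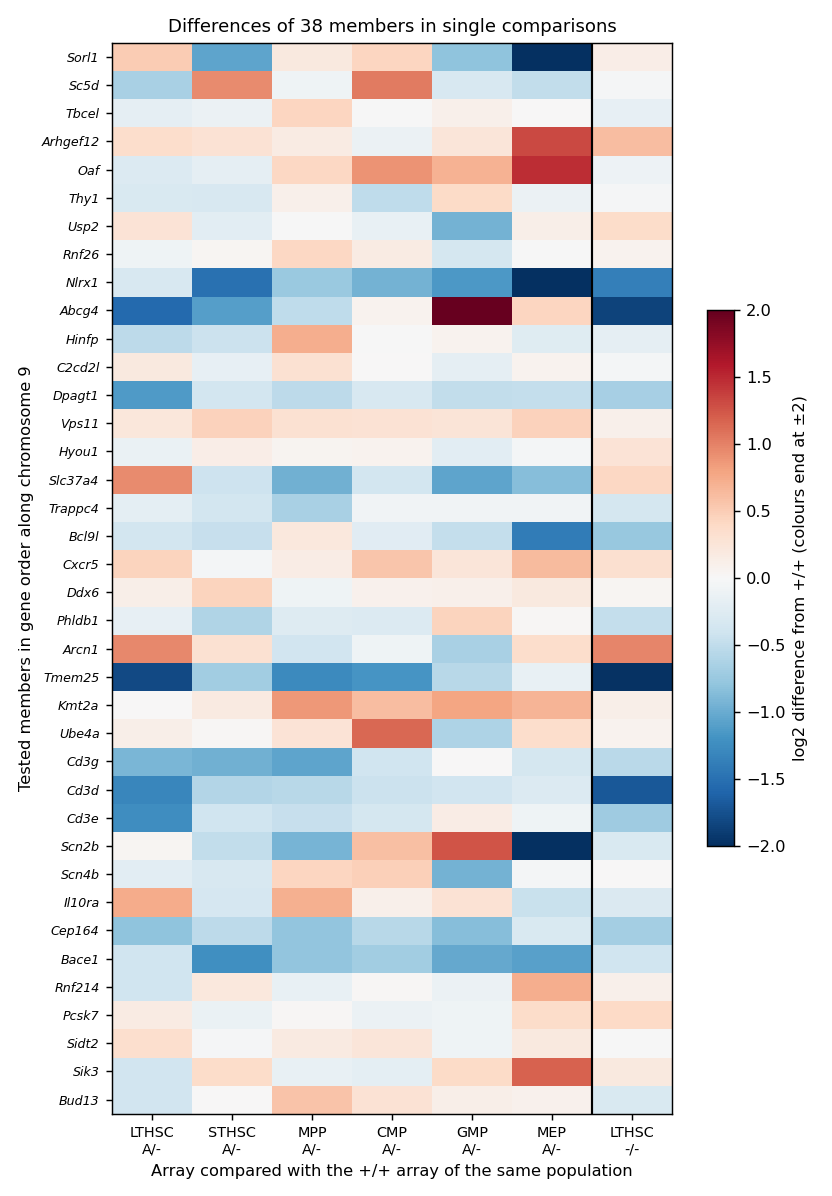
Log2 difference from the +/+ array of the same population (colour scale ending at -2 and 2) for the 38 tested members, in gene order from top to bottom, with the 6 A/- arrays and, right of the line, the LTHSC -/- array as columns. Bace1, Nlrx1 and Cep164 are blue in every column, Kmt2a and Vps11 are red or white, and the lowest value, -3.33, is Sorl1 in MEP.

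In LTHSC both mutant genotypes were measured, 1 array each against the same +/+ array, so their differences share that array and are set side by side without a test. Against +/+, 4 members measured past 2-fold lower in -/- and 0 higher, with 3.4% of all features past that fold. Tmem25 was at 6.47 in +/+, 4.49 in -/- and 4.67 in A/-. Abcg4 was at 7.04, 5.19 and 5.49, and Cd3d at 7.52, 5.83 and 6.22, in the same order. Each of these 3 genes was highest on the +/+ array, and Tmem25 and Abcg4 were detected there alone. Nlrx1 was at 8.43, 7.06 and 8.12, with differences from +/+ of -1.37 in -/- and -0.31 in A/-.

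Dpagt1 was at 11.12 in -/- and 10.65 in A/-, differences of -0.67 and -1.14. Cep164 differed by -0.69 in -/- and -0.81 in A/-, Bace1 by -0.41 and -0.39, Cd3e by -0.71 and -1.25, and Arcn1, the COPI subunit, by 0.97 and 0.96. Kmt2a was at 11.97 in -/-, beside 11.86 on the other 2 LTHSC arrays, and Vps11 at 9.29, between its +/+ and A/- values. Between the mutant arrays themselves 2 members were at least 2-fold apart, with 3.76% of all features. Il10ra was 2.04-fold and Nlrx1 2.08-fold lower in -/- than in A/-.

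Between LSK cells and committed progenitors no member call held over populations. Taking the 12 arrays as replicates, limma called 7 of 38 members, or 18.4%, where 12.5% of all features were called (8.4% higher and 4.14% lower in LSK). The +/+ and A/- arrays of a population share its level, however, so that fit counts each population more than once. With the mean of both arrays as 1 value a population, a choice made after the data were seen, limma called 0 of 38 members and 0.648% of all features over 3 LSK and 3 committed populations. An unadjusted p under 0.05 was then reached by 9 members (23.7%) and by 15.5% of all features. Among the 9, Cd3d and Cd3e passed the filter through LSK arrays alone and Oaf through committed arrays alone. Their directions are therefore in part set by that filter. The adjusted p-values of the 7 were 0.101 to 0.302, so the values of the array fit below are a description. The median difference without regard to sign was 0.38 for members and 0.34 for all features. The Thy1 difference had the greatest size, 2.83 higher in LSK (SE 0.42, 6 and 6 arrays, limma adjusted p = 0.00233), and its adjusted p over population means was 0.116. In +/+ cells its level was 9.32 (LTHSC), 9.31 (STHSC), 8.33 (MPP), 7.47 (CMP), 5.74 (GMP) and 5.12 (MEP), and the A/- cells had the same order.

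Cd3d was at least 2.06-fold higher in LSK cells (limma adjusted p = 0.00176 over arrays and 0.101 over population means), since 0 committed arrays detected it. Because Cd3d passed the filter through LSK arrays alone, its direction and p-values in this contrast are in part set by that filter. Over arrays Bcl9l differed by 1.65 (SE 0.47, adjusted p = 0.0436), Phldb1 by 1.01 (SE 0.21, adjusted p = 0.0146) and Kmt2a by 0.75 (SE 0.17, adjusted p = 0.0203). Cep164 differed by -1.73 (SE 0.39, adjusted p = 0.0183), with its lowest value in STHSC and its highest in MEP. Hyou1 differed by -0.69 (SE 0.17, adjusted p = 0.0280), and both GMP arrays, at 8.46 and 8.26, lay above the other 11. With each array scaled to its 75th percentile the median of all features moved from -0.03 to -0.27, 12 members were called, 5 higher and 7 lower in LSK, beside 26.1% of all features, and Kmt2a was no longer among the called, at 0.22 (adjusted p = 0.364). Without the LTHSC pair 2 members were called, Thy1 (adjusted p = 0.0247) and Cd3d (0.00679), beside 3.44% of all features, and Phldb1, Kmt2a, Cep164, Hyou1 and Bcl9l had adjusted p-values of 0.0661 to 0.147. Without the MPP, GMP or MEP pair 4 were called, Thy1, Cd3d and Phldb1 each time, where 9.22%, 5.38% and 7.82% of all features were called.

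The 6 LSK and 6 committed arrays did not overlap for 5 members, Thy1, Cd3d, Phldb1, Tbcel and Hyou1, or 13.2% of those tested, against 7.96% of all features. Cd3d is counted here although it passed the filter through LSK arrays alone. For Bace1 the populations lay far apart without separating LSK from committed cells. It was highest in GMP and lowest in MEP, both committed, and limma gave -0.28 (SE 0.75, adjusted p = 0.815).

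**Figure D4:**
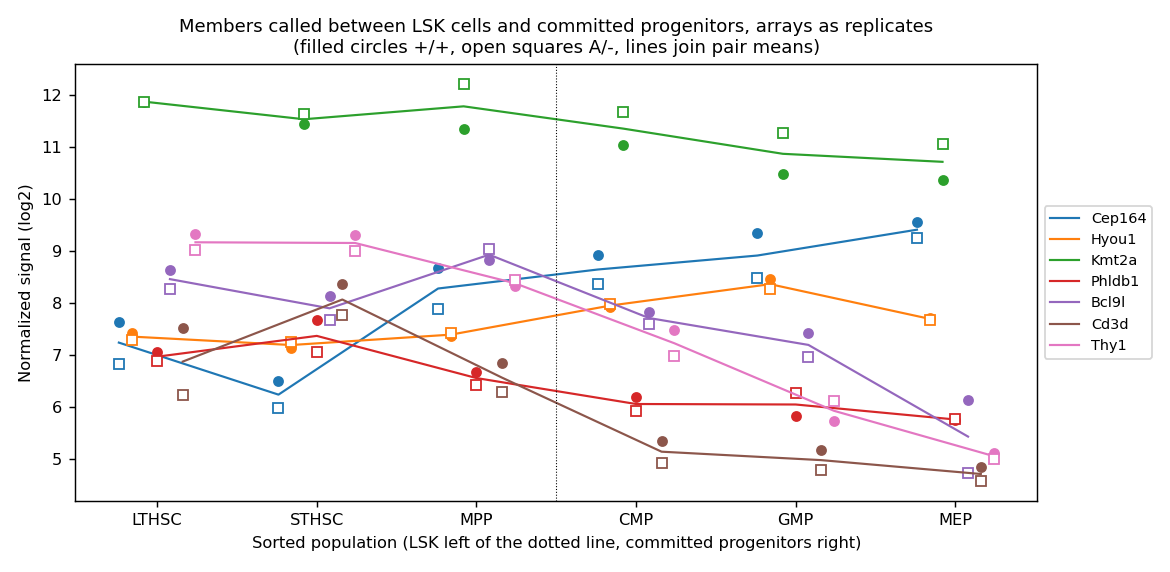
Normalized log2 signal of the 7 members called over arrays, and 0 of them over population means, between LSK cells (left of the dotted line) and committed progenitors (right), by sorted population, with filled circles for +/+, open squares for A/- and lines through the pair means. Thy1 goes from 9.32 in the +/+ LTHSC to 5.12 in the +/+ MEP, and Cep164 from 7.64 to 9.56.

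Where a member had several tested probes, these were compared. That was so for 11 members, of which 8 had probes of 1 sign and 3 (Ddx6, Vps11 and Rnf214) had probes of opposite sign. The dimmer Vps11 probe was detected on 2 arrays, and the dimmer Rnf214 probes on 2 and 4. Kmt2a, Nlrx1, Trappc4, Sidt2 and Cd3e were among the 8. Bace1, Dpagt1, Cep164 and Cd3d had 1 tested probe each, so their differences have no second probe to set beside them.

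**Figure D5:**
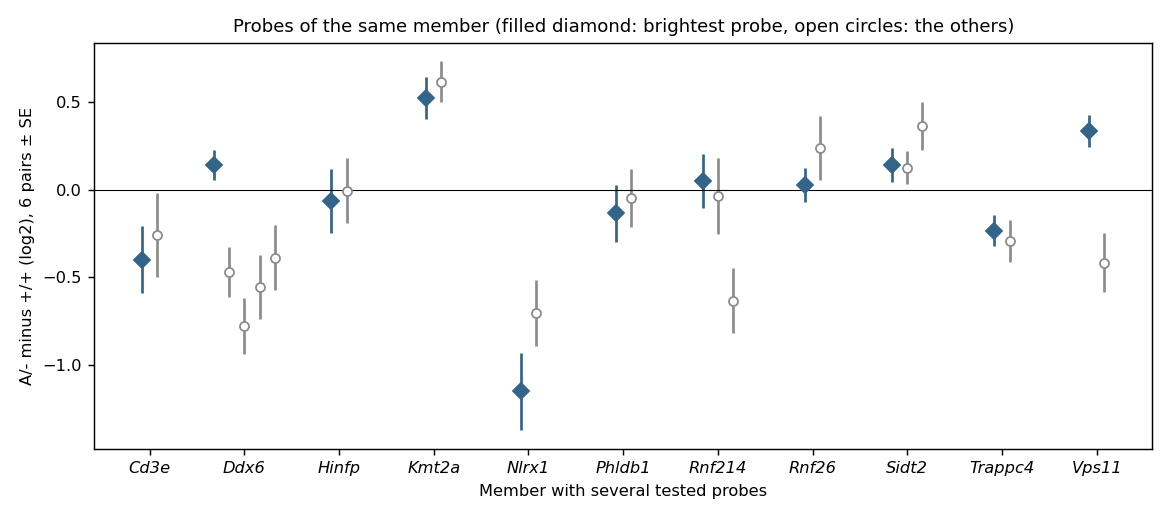
Difference A/- minus +/+ (log2, 6 pairs, bars 1 SE) of each tested probe of the 11 members with several, with a filled diamond for the brightest probe and open circles for the others. The Nlrx1 probes lie at -1.15 and -0.71 and the Kmt2a probes at 0.52 and 0.62, while the Ddx6 diamond at 0.14 stands above 4 circles between -0.78 and -0.39.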

How the data were processed

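Total RNA of 13 sorted cell samples was hybridized to Illumina arrays after conversion to biotin-labelled cRNA. The deposited unnormalized table gives, per the file headers, linear probe intensity with the detection p-value beside it. A deposited table of the authors' processed intensity values, whose normalization method the sources used here do not name, served as an alternative. Per-sample columns left unused numbered 0.

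Of 45281 probes (326 empty lines dropped) 34885 had 1 gene symbol in the platform annotation, 18 several and 10378 none listed. By Entrez number 34807 matched RefSeq genes of GRCm38.p6, and 0 symbols changed. That table gave names and gene order. With limma 3.58.1 in R 4.3.3, background was inferred by neqc through the detection p-values (offset 16), followed by quantile normalization and log2, so changes are relative and those of dim probes are shrunk. The brightest probe of each gene was kept (29453 features), and features with a detection p under 0.01 on at least 2 arrays were tested (12807, of which 2773 unnamed).

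The fit (lmFit, then eBayes with trend) covered all tested features over 12 arrays, with population as a block. Another fit separated LSK and committed pairs, and the last compared populations with genotype as covariate, taking arrays as replicates. Calls are at a Benjamini-Hochberg adjusted p under 0.05 over all tested features. Single pairs, those with the -/- array included, were not tested, and counts are of features past 2-fold whose brighter array was detected. The scripts were tested on simulated data. Alternatives were each pair left out, other normalizations, no background correction, the authors' values, other filters, every probe, no trend and a 1.5-fold limit. Population means, and detection on at least 6 arrays for the sign counts, were added after the data were seen.

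The members and gene lists were chosen with earlier results of these data known. Every member could be named, with list genes, called genes of the segment and the 3 genes most correlated with a called member.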

Additional observations from a re-analysis of the deposited data

Results flagged for a closer look

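Abcg4 stood out because its A/- minus +/+ difference was below 0 in all 3 LSK pairs and above 0 in all 3 committed pairs. The contrast, LSK minus committed, was -1.89 with an unadjusted p of 0.00585 and an adjusted p of 0.573 in limma over all tested features, so it did not pass.

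For 4 of the 38 tested members 1 of the 6 pair differences lay far from the other 5 by Dixon's criterion, where chance gives about 1 in 20. The same share over all features was not counted, so these flags describe single members and not the set. Arhgef12 was at 1.32 in MEP and between -0.12 and 0.34 in the other pairs. Cd3d was at -1.30 in LTHSC and between -0.58 and -0.27 elsewhere. Dpagt1 was at -1.14 in LTHSC and between -0.53 and -0.32 elsewhere. Slc37a4 was at 0.95 in LTHSC and between -1.05 and -0.37 elsewhere. In 3 of these 4 the distant pair was LTHSC, whose +/+ array also differed from the other 12 in Eif2s3y, and the part of that array was not tested.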

How the results depend on the processing

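The number of members called between A/- and +/+, 1 over 6 pairs, ranged from 0 to 5 as each pair was left out in turn. It was 6 without both the LTHSC and MEP pairs, 2 with 75th percentile scaling (beside 0.82% of all features), 3 with cyclic loess (0.633%), 3 without background correction (0.89%), 3 on the authors' processed values (0.883%), 2 with detection on at least 6 arrays (0.671%), 2 with no filter (0.292%) and 0 without the mean-variance trend (0.0859%). Bace1 was among the called in each of these except the last and the fits without the STHSC, MPP, CMP or GMP pair. Normalizing LTHSC and the other arrays in 2 sets, or treating every probe as a feature, left the count at 1. Over all features the count fell from 76 to between 2 and 7 without the STHSC, MPP, CMP or GMP pair and to 11 without the trend, and it was 473 without the LTHSC pair, 45 without MEP and 498 without both. The 7 members called between LSK and committed cells became 2 to 6 as each pair was left out, 3 without both LTHSC and MEP, 12 with 75th percentile scaling, and 0 with 1 mean a population, an alternative chosen after seeing the data. Under that scaling 894 features were higher and 2452 lower in LSK, against 1076 and 530. This contrast was not run on sets normalized separately or on the authors' values. The members' median difference, -0.043, was 0.004 without the LTHSC pair, 0.022 without GMP, 0.028 with 75th percentile scaling and between -0.066 and 0.001 otherwise, all within the spread between pairs. The 0 members whose genotype effect differed between LSK and committed pairs stayed 0 in every alternative run.

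With a 1.5-fold limit the single pair counts were 9 (LTHSC), 7 (STHSC), 11 (MPP), 6 (CMP), 11 (GMP), 9 (MEP), 10 for -/- against +/+ in LTHSC and 2 for -/- against A/-, beside 12.7%, 12.2%, 22.4%, 10.1%, 21%, 12.8%, 11.4% and 12.2% of all features. On the authors' processed values the counts past 2-fold were 0 in LTHSC, 1 in STHSC, 0 in MPP, CMP and GMP, 2 in MEP, and 0 for both -/- comparisons. The cause of these lower counts was not tested. The share of all features past 2-fold on those values was not counted, so the counts are no result about the members alone. Without the LTHSC pair 4 members, none of them called, changed sign: Abcg4 from -0.11 to 0.18, Arcn1 from 0.08 to -0.09, Hinfp from -0.07 to 0.02 and Hyou1 from -0.02 to 0.00. Among the members called in either contrast, at an unadjusted p under 0.05 between the genotypes or of 1 sign in 6 pairs, 0 changed sign in the alternatives run. Of their values, 223 kept their side of the threshold, 18 newly passed and 38 no longer passed. The genotype fits are paired by population, and the labels give no replicate numbers for another pairing. Of the 55 genes 17 had too little signal, or no probe, to be read.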
